A study of Mus musculus with 8 samples.

Results

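MHC class I molecules carry peptides from inside the cell to its surface, where T cells and natural killer cells read them. A class I molecule is a heavy chain held together with beta-2-microglobulin, and it is loaded in the endoplasmic reticulum with peptides that the proteasome has cut and the TAP transporter has pumped in. Mouse embryonic stem cells (ESCs) are known for low levels of these molecules, and interferon raises them in most cell types. Transcripts of 8 genes of this pathway were followed here, of 22878 gene entries in the files. They were chosen by gene name: the heavy chains H2-K1 and H2-D1, the light chain B2m, the transporter genes Tap1 and Tap2, the loading factor Tapbp, and Psmb8 and Psmb9, which encode subunits of the immunoproteasome. Each of the 8 genes had 1 entry, and all 8 passed the filter for the tests.

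RNA-Seq was carried out on the mouse ESC line R1 (2 libraries) and on 4 secondary induced pluripotent stem cell (iPSC) lines, 16-6 (2 libraries), 32 (2 libraries), S8 (1 library) and T2 (1 library). The iPSC lines were derived from tissues of adult mice made wholly of iPSCs by tetraploid complementation, whose cells hold doxycycline-inducible Oct4, Sox2, c-Myc and Klf4. Line 16-6 came from c-Kit-selected hematopoietic cells of the bone marrow, 32 from adipocyte progenitors of inguinal fat, S8 from epidermis and T2 from the stomach lining, and the lines were grown from picked colonies after doxycycline was withdrawn. All 5 lines, R1 included, were grown with LIF and serum on mitomycin C-treated fibroblasts from embryos of ICR mice, so the RNA of these feeder cells can be in every library. The study describes the iPSC lines as sharing their genetic background, and the strain of R1 and of the iPSC mice is not given in the sources used here.

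Expression is given as FPKM, which scales the fragments of a gene to the length of its transcript and the depth of its library, divided by 1 constant so that the median library sums to 1000000. The files hold no read counts, and the fragments behind a value were estimated from its confidence limits. In units of 1000000 they came to 15.5 to 16.7 for a whole library. Pluripotency markers were above 1 FPKM in every library for all 8 genes listed, and their levels differed between the lines. Zfp42 was at 541 and 544 FPKM in R1 and at 92.9 to 277 in the iPSC libraries. Utf1 was at 426 and 441 FPKM in R1 and at 1193 in S8. Summed over 16 fibroblast markers, the level was 1040 and 1080 FPKM in R1, 1936 and 1922 in 16-6, 85.6 and 85.5 in 32, 436 in S8 and 651 in T2. Summed over 8 immune cell markers, it was 96.2 and 101 in R1 and between 19.4 and 30.8 in the 6 iPSC libraries, with the pan-leukocyte gene Ptprc at or below 0.406 FPKM everywhere. The sum of 5 endothelial markers stayed between 2.79 and 6.3 FPKM. Of 7 epithelial markers, the simple keratins Krt8 and Krt18 were above 1 FPKM in every library and the other 5 below 1.

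Of the 8 genes, 7 lie in the MHC on mouse chromosome 17 within 1.35 Mb, at chr17:34056423-35404442 of mm9, and B2m lies alone on chromosome 2 at chr2:121973423-121978818 on the plus strand. Psmb9, Tap1, Psmb8 and Tap2 stand together within 34.2 kb at chr17:34319044-34353266. Psmb9 (minus strand) and Tap1 (plus strand) are divergent, with 226 bases between their deposited starts. In GENCODE, Psmb9 reaches to 34324697 and Tap1 begins at 34324498, so the annotated genes overlap. H2-K1 is at chr17:34132957-34137278 on the minus strand and H2-D1 at chr17:35400039-35404442 on the plus strand. B2m and H2-D1, the 2 genes with the largest differences between the lines, are therefore on different chromosomes.

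The sequences before the starts of B2m and H2-K1 are shown because these genes are partners in 1 molecule and were measured at very different ranges between the lines. They are the 199 and 200 bases upstream of the deposited starts, read 5′ to 3′ along each gene on mm9 at chr2:121973223-121973421 (plus strand) and chr17:34137279-34137478 (minus strand). Capitals mark letters that match, on either strand, the interferon response core AANNGAAA, the kappaB-type motif GGGATTCCC or the CCAAT box.
B2m: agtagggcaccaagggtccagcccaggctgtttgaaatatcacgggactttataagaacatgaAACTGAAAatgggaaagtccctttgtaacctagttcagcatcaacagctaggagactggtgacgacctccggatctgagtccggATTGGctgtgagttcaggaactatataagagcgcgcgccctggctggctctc
H2-K1: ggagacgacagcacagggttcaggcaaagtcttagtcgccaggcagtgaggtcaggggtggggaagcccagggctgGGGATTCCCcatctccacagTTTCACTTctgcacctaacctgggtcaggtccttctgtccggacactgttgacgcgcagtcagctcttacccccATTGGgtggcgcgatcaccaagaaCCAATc

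The stretch of 28 bases from the kappaB-type match to the interferon response match is shown for both heavy chain genes, because it is nearly the same in a gene that differed between the lines by little and in one that differed by more. It lies 124 to 97 bases before the deposited start of H2-K1, at chr17:34137375-34137402 on the minus strand, and 170 to 143 bases before that of H2-D1, at chr17:35399869-35399896 on the plus strand. The H2-D1 stretch lies within exon sequence annotated in GENCODE. The stretches differ by 1 substitution, A17T, counted from 1 at the 5′ end with the H2-K1 base first.
H2-K1: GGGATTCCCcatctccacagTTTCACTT
H2-D1: GGGATTCCCcatctcctcagTTTCACTT

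Of 21496 windows of 200 bases upstream of starts in the files, 0.251% held the kappaB-type motif, and 2 of the 8 genes did, H2-K1 and H2-D1. The interferon response core was in 15.6% of all windows and in those of H2-K1, H2-D1, B2m and Tap2. The CCAAT box was in 30.9% of all windows and in those of H2-K1, H2-D1, B2m, Tapbp and Psmb9. The GAS motif TTCNNNGAA was in 5.32% of all windows and in that of Psmb8. The starts are those of the files, and GENCODE places exons in most of these windows. Those of H2-D1, Tap1, Tap2, Psmb8 and Psmb9 lie wholly in annotated exons, and 193 of 200 bases of the Tapbp window do. Matches or their absence there need not describe promoter sequence. Only these letters in these windows were searched, none of the motifs overlapped another in the windows shown, and a match is a description of sequence, not of binding.

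B2m was high in R1 and 16-6 and low in 32, S8 and T2. Its FPKM was 477 and 405 in R1, 381 and 408 in 16-6, 63.5 and 64.9 in 32, 60.2 in S8 and 71.8 in T2. The 4 libraries of R1 and 16-6 thus lay far above the other 4, without overlap of the confidence limits, since the lowest lower limit of the former was 368 and the highest upper limit of the latter 77.1. Between 486 and 3904 fragments stood behind each value. B2m ranked at the 98.7 to 99 percentile of all entries in R1 and 16-6 and at the 89.4 to 92 percentile in the other lines, so it stayed among the more abundant transcripts in every line.

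The mean B2m level in R1 was 441 ± 51.1 FPKM (SD, n = 2), which was 6.87-fold that in 32 (64.2 ± 0.996, SD, n = 2), 7.33-fold that in S8 and 6.15-fold that in T2. On the log2(FPKM + 1) scale the differences from R1 were -2.76 (SE 0.09, adjusted p = 3.62e-05) in 32, -2.85 (SE 0.11, adjusted p = 8.54e-05) in S8 and -2.60 (SE 0.11, adjusted p = 0.000175) in T2, by limma with Benjamini-Hochberg adjustment over 13693 genes. Line 16-6 averaged 395 ± 19.1 FPKM (SD, n = 2) and did not differ from R1 past the threshold (log2 difference -0.16, adjusted p = 0.183). Against 16-6, the differences were -2.60 in 32, -2.69 in S8 and -2.44 in T2, all past the threshold. Among the low lines, T2, 32 and S8 in this order, no neighbours differed past it (adjusted p = 0.266 and 0.49).

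H2-D1, which encodes a classical heavy chain, followed the same split with a smaller range. Its FPKM was 43.1 and 43.7 in R1, 37.7 and 39.1 in 16-6, 9.93 and 8.42 in 32, 15.7 in S8 and 14.9 in T2. R1 and 16-6 were again above the other lines without overlap, and 32 was the lowest. The R1 mean of 43.4 FPKM was 4.73-fold that in 32, 2.76-fold that in S8 and 2.91-fold that in T2. The log2 differences from R1 were -2.13 (SE 0.08, adjusted p = 5.79e-05) in 32, -1.41 (SE 0.10, adjusted p = 0.00026) in S8 and -1.48 (SE 0.10, adjusted p = 0.000442) in T2. H2-D1 was 1.71-fold higher in S8 than in 32 and 1.63-fold higher in T2 than in 32, with adjusted p = 0.0024 and 0.00465, but these differences were below the 2-fold minimum.

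H2-K1, the other classical heavy chain, differed less. Its FPKM was 38.8 and 35.1 in R1, 35.3 and 37.6 in 16-6, 22.5 and 23.4 in 32, 31.1 in S8 and 30.3 in T2. The 32 libraries were below all others, and R1 and 16-6 overlapped. The R1 mean was 1.61-fold that in 32 (log2 difference -0.66, SE 0.06, adjusted p = 0.000877), which is under the 2-fold minimum. S8 and T2 were 1.19-fold and 1.22-fold below R1 (adjusted p = 0.0436 and 0.032).

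**Figure D1:**
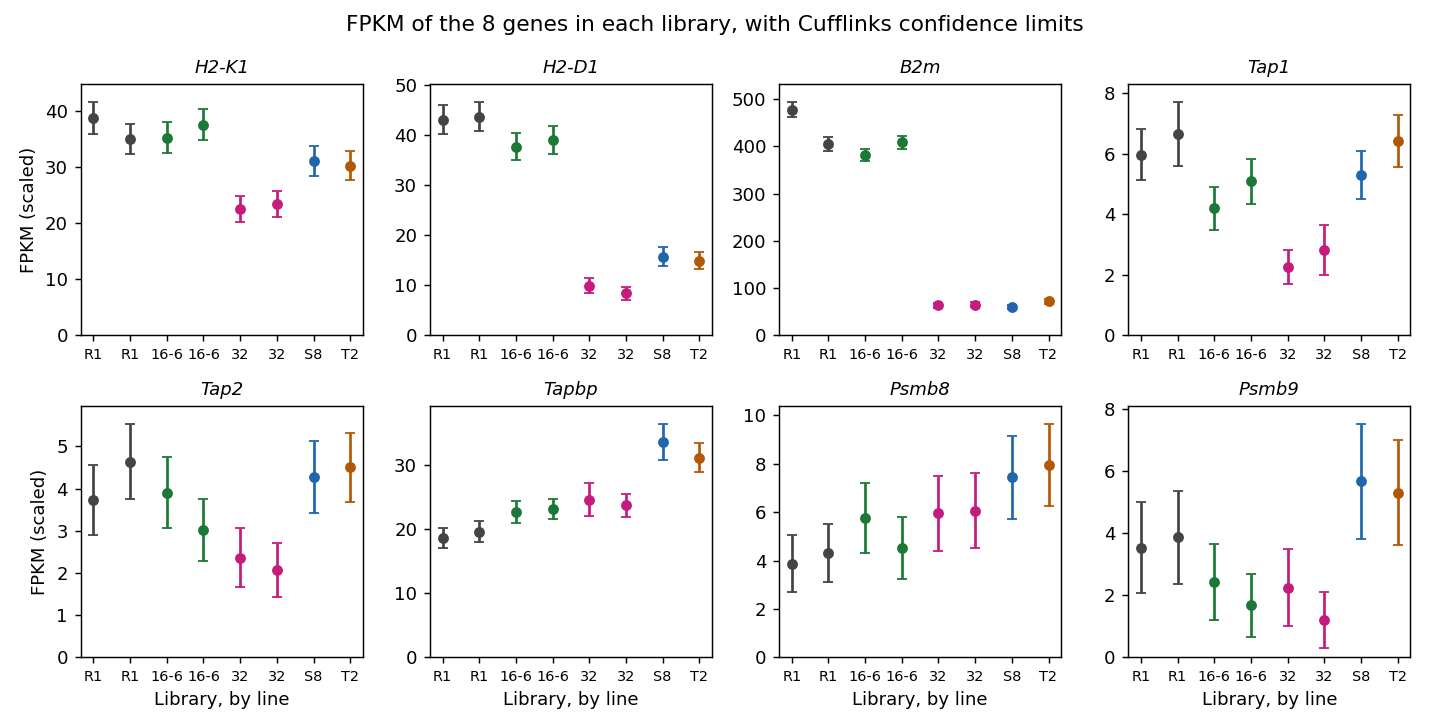
FPKM of each of the 8 genes (vertical axes, linear, scaled to a median library total of 1000000) in the 8 libraries (horizontal axes, by line). Points are single libraries and bars are the confidence limits given by Cufflinks. B2m and H2-D1 are low in 32, S8 and T2 (B2m at 60.2 to 71.8 FPKM), H2-K1 differs less, and Tapbp is highest in S8 and T2.

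The heavy chains also stood in another order in different lines. Compared per kilobase, H2-K1 over H2-D1 was 0.898 and 0.803 in R1 and 0.938 and 0.961 in 16-6, but 2.26 and 2.78 in 32, 1.98 in S8 and 2.03 in T2. H2-D1 was thus the more abundant of the pair in R1 and 16-6, and H2-K1 in the other 3 lines. B2m over the sum of H2-K1 and H2-D1 was 5.83 and 5.14 in R1 and 5.23 and 5.33 in 16-6. It was 1.96 and 2.04 in 32, 1.29 in S8 and 1.59 in T2, so transcripts of the light chain were in excess of those of these heavy chains in every library, by a smaller factor where B2m was low. These ratios are descriptions and were not tested. The heavy chain genes share sequence: of the 50-base windows of the longest GENCODE transcript, 8.87% for H2-K1 and 14.3% for H2-D1 were also in a transcript of another gene, and 7.01% and 5.31% were shared within the pair. B2m shared none. Since only unique alignments were kept, fragments from shared stretches can be missing from both genes, and the ratio within the pair carries that uncertainty.

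**Figure D2:**
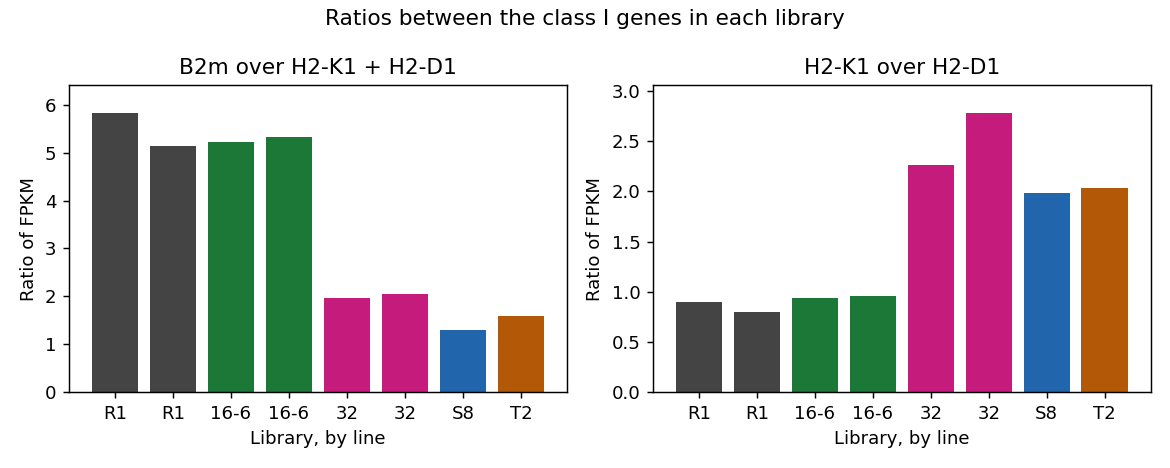
Ratios of FPKM (vertical axes, linear from 0) in each of the 8 libraries (horizontal axes, by line; each bar is 1 library). B2m over the summed heavy chains lies between 5.14 and 5.83 in R1 and 16-6 and between 1.29 and 2.04 in the other lines, and H2-K1 over H2-D1 is below 1 in R1 and 16-6 and at or above 1.98 in the others.

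Tap1 and Tap2 encode the subunits of the heterodimeric peptide transporter, and both were lowest in 32. Tap1 was at 5.97 and 6.65 FPKM in R1, 4.2 and 5.09 in 16-6, 2.27 and 2.83 in 32, 5.31 in S8 and 6.43 in T2. Tap2 was at 3.73 and 4.63 FPKM in R1, 3.9 and 3.02 in 16-6, 2.36 and 2.08 in 32, 4.28 in S8 and 4.5 in T2. The 32 libraries were below all others for both genes, whereas S8 and T2, where B2m and H2-D1 were low, lay within or near the range of R1. Tap1 was lower in 32 than in R1 by 2.48-fold (log2 difference -1.05, SE 0.12, adjusted p = 0.00156) and higher in T2 than in 32 by 2.52-fold (log2 difference 1.07, SE 0.15, adjusted p = 0.00394). The former was below the 2-fold minimum without the first library of 32 (log2 difference -0.93) and without the second library of R1 (-0.98), and under quantile normalization (-0.70). The latter was below it without the first library of 32 (0.96) and under quantile normalization (0.82). Tap2 was lower in 32 than in R1 by a log2 difference of -0.68 (adjusted p = 0.00984), under the 2-fold minimum.

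Tapbp encodes tapasin, which bridges the transporter and the heavy chain while peptide is loaded, and it ran the other way. Its FPKM was 18.6 and 19.6 in R1, 22.7 and 23.1 in 16-6, 24.5 and 23.7 in 32, 33.5 in S8 and 31.1 in T2. Both R1 libraries were below all iPSC libraries, and S8 and T2 were above all others. The log2 differences from R1 were 0.25 in 16-6, 0.32 in 32, 0.78 in S8 and 0.68 in T2, with adjusted p between 0.000286 and 0.00763, and all were under the 2-fold minimum.

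Psmb8 and Psmb9 encode catalytic subunits that replace their constitutive counterparts Psmb5 and Psmb6 in the immunoproteasome. Psmb8 was at 3.87 and 4.31 FPKM in R1, 5.75 and 4.52 in 16-6, 5.95 and 6.06 in 32, 7.44 in S8 and 7.94 in T2. Psmb9 was at 3.53 and 3.87 FPKM in R1, 2.44 and 1.68 in 16-6, 2.25 and 1.2 in 32, 5.67 in S8 and 5.31 in T2. Both were thus highest in S8 and T2, and Psmb9 was lowest in 16-6 and 32.

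Psmb8 differed from R1 by log2 differences of 0.73 in S8 (adjusted p = 0.00659) and 0.81 in T2 (adjusted p = 0.00601), under the 2-fold minimum. Psmb9 passed the threshold in S8 and T2 against 16-6 (log2 differences 1.14 and 1.06, adjusted p = 0.0151 and 0.0254) and against 32 (1.32 and 1.24, adjusted p = 0.0102 and 0.0157). Only 7 to 39 fragments stood behind a Psmb9 value. Without the second library of 16-6 both calls against 16-6 were lost (adjusted p = 0.0591 and 0.0915), and the call of T2 against 16-6 was also lost without either R1 library (adjusted p = 0.0556 and 0.0547). Without the second library of 32 the difference of T2 from 32 was 0.96, below the 2-fold minimum. Against the constitutive subunits both stayed rare: Psmb8 came to 2.13% to 3.26% of Psmb5, and Psmb9 to 0.397% to 1.86% of Psmb6, in FPKM.

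Counted together, 0 of the 8 genes passed the threshold in 16-6 against R1, where 7.11% of all tested genes did. That count is by limma, and 3 of the 8 had an unadjusted p under 0.05. In 32 against R1, 3 passed, all lower (B2m, H2-D1 and Tap1), beside 9.77% of all tested genes, and Psmb9 also passed at pseudocount 0.1 (log2 difference -1.12) and without the first library of 32 (-1.09). In S8 against R1 and in T2 against R1, 2 passed, both lower (B2m and H2-D1), beside 16.7% and 10.5%. The median log2 difference of the 8 genes from R1 was -0.17 in 16-6, -0.75 in 32, -0.09 in S8 and 0.06 in T2, beside -0.03, -0.02, -0.03 and -0.03 over all tested genes. These comparisons share the R1 libraries. In 32 all 8 genes had an adjusted p under 0.05 against R1, 6 of them lower and Tapbp and Psmb8 higher. So did 8428 of all 13693 tested genes.

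Between the iPSC lines, 2 of the 8 genes passed in 32 against 16-6, both lower (B2m and H2-D1), where 10.3% of all tested genes passed. In S8 against 16-6 and in T2 against 16-6, B2m and H2-D1 were lower and Psmb9 higher, which makes 3 of 8 beside 17.3% and 8.07%. In S8 against 32, Psmb9 was higher (1 of 8, beside 11.8%), and in T2 against 32, Tap1 and Psmb9 were higher (2 of 8, beside 7.43%). In T2 against S8, 0 of 8 passed by limma, 0 had an unadjusted p under 0.05, and 2.75% of all tested genes passed. With the 6 libraries of R1, 16-6 and 32 alone, the counts between these lines were the same, at 0, 3 and 2 of 8. S8 and T2 have 1 library each, so their differences rest on the spread of the other lines and have no replicate check. The study lists more reads for S8 and T2 than for the other libraries, and line and sequencing cannot be told apart there.

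**Figure D3:**
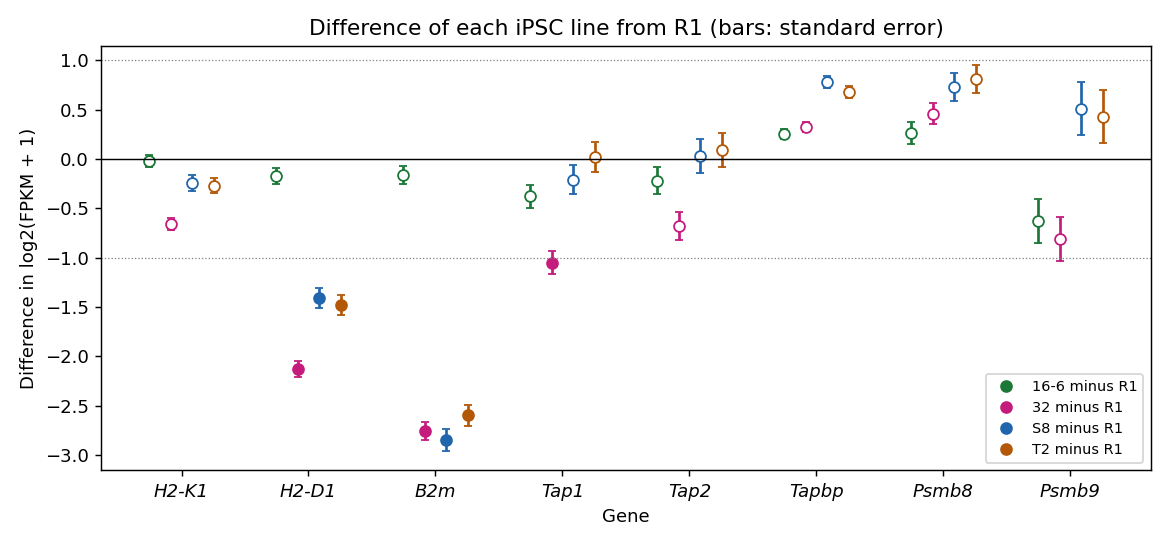
Difference of each iPSC line from R1 in log2(FPKM + 1) (vertical axis) for the 8 genes (horizontal axis). Points are fitted differences of line means, bars are standard errors, filled points passed both the adjusted p and the 2-fold minimum (dotted lines), and open points did not. B2m and H2-D1 pass in 32, S8 and T2, with B2m between -2.60 and -2.85, and Tap1 passes in 32.

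B2m and H2-D1 were read beside the markers of feeder fibroblasts, since the feeders are in every culture. Against R1, 15 of 16 fibroblast markers were lower in 32, 9 in S8 and 8 in T2. In 16-6, by contrast, 7 were higher and 2, Dcn and Lum, lower. Over all 13693 tested genes, 1127, 1334 and 896 were lower in 32, S8 and T2. In 16-6, 490 of all tested genes were higher and 484 lower. The lines with high B2m were the lines with the highest fibroblast sums. In 16-6, S8 and T2 these sums were mostly Col1a1 and Col1a2, and single markers differed in pattern. Prrx1 was at 56.2 and 54.7 FPKM in R1, 81.4 and 82.8 in 16-6, and 2.55 to 10.5 in 32, S8 and T2. Col1a1 was at 174 and 180 FPKM in R1, 600 and 566 in 16-6, 29.1 and 27.8 in 32, 167 in S8 and 243 in T2. 16-6 had a fibroblast sum of 1936 and 1922 FPKM against 1040 and 1080 in R1, with B2m at 381 and 408 against 477 and 405. S8 and T2 had fibroblast sums of 436 and 651 against 85.6 and 85.5 in 32. In them, 12 and 14 of 16 markers were higher than in 32, as were 996 and 635 of all 13693 tested genes. B2m was at 60.2 and 71.8 in S8 and T2, against 63.5 and 64.9 in 32. H2-D1 and the fibroblast sum were both lowest in 32, whereas Psmb8 and Tapbp were highest in S8 and T2, where the fibroblast sum was intermediate. In bulk RNA, fewer cells of a type and less RNA per cell cannot be told apart, and no library of feeders alone was analysed here, so the part of feeder RNA in these levels was not tested.

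Markers of immune cells, which carry much class I, were highest in R1. Lyz2, a gene of macrophages and granulocytes, was at 44.5 and 48.9 FPKM in R1, 3.25 and 4.45 in 16-6, 0.167 and 0.0831 in 32, 1.26 in S8 and 2.61 in T2, and Tyrobp, a signaling adaptor of myeloid and natural killer cells, at 4.17 and 2.7 in R1 and at or below 0.274 elsewhere. The sum of the 8 immune markers in 16-6 (23.5 and 24.5 FPKM) lay below that in 32 (28.9 and 30.5), while B2m was 6.15-fold higher in 16-6. That sum was mostly Laptm5 and Cd68, and Lyz2 went the other way, lower in 32 than in 16-6 (log2 difference -2.10, adjusted p = 0.000221). Of the immune markers, 5 were tested. Of these, 3, 2, 2 and 3 were lower than in R1 in 16-6, 32, S8 and T2, and 0 higher. Over all 13693 tested genes, 484, 1127, 1334 and 896 were lower in the same lines. The part of immune cells in the levels of R1 was not tested.

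Strain could also differ between the samples. The heavy chain genes are among the most polymorphic of the mouse, and reads were mapped to 1 reference genome with unique alignments kept, so a read from another haplotype can map less often. The feeders are from outbred ICR mice, whatever the strain of the lines. The files hold no read sequence and therefore no alleles, so a difference in level and a difference in haplotype cannot be told apart for H2-K1 and H2-D1. The 4 iPSC lines, which share their background in the study's description, spanned nearly the whole range: B2m was 6.15-fold and H2-D1 4.18-fold higher in 16-6 than in 32. The difference between R1 and 16-6, where the backgrounds can differ, was 1.12-fold for B2m, 1.13-fold for H2-D1 and 1.01-fold for H2-K1. R1 and 16-6 also differed in their fibroblast sums, and the part of strain in the levels of B2m and the heavy chains was not tested.

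**Figure D4:**
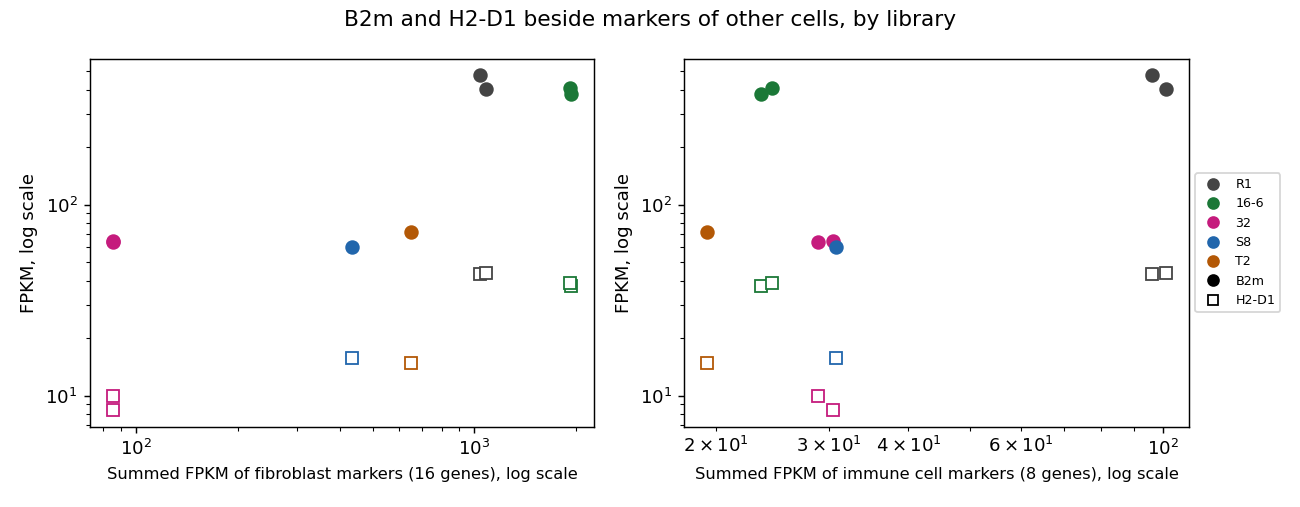
FPKM of B2m (filled circles) and H2-D1 (open squares) on the vertical axes against the summed FPKM of 16 fibroblast markers (left) and 8 immune cell markers (right) on the horizontal axes, all log scales; each symbol pair is 1 of the 8 libraries. Between 32 and T2 the fibroblast sum goes from 85.5 to 651 FPKM while B2m stays between 60.2 and 71.8, and R1 stands apart in the immune markers.

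The rest of the class I pathway was described from lists of its genes. Of 26 other class I heavy chain genes listed, 23 were in the files and 15 were tested, and their summed level was 14.4 to 29.1 FPKM per library, below H2-K1 and H2-D1 together (31.8 to 81.9). Against R1, 0 were higher and 0 lower in 16-6 by limma (6 had an unadjusted p under 0.05). There were 1 higher and 3 lower in 32, 2 higher and 2 lower in S8, and 1 higher and 3 lower in T2. Of all 13693 tested genes, 490, 211, 949 and 541 were higher than in R1 in 16-6, 32, S8 and T2. In the same order, 484, 1127, 1334 and 896 were lower. Whether this list differed from all genes was not tested. The gene of the list with the largest difference was Fcgrt, the heavy chain of the neonatal Fc receptor, which also pairs with B2m. It was at 9.04 and 8.97 FPKM in R1, 5.88 and 5.12 in 16-6, 1.12 and 0.936 in 32, 5.33 in S8 and 2.58 in T2, and fell against R1 in 32 (log2 difference -2.30) and T2 (-1.48). H2-T10, a nonclassical heavy chain, was at 2.73 and 2.48 FPKM in R1 and 0.11 to 0.427 in 32, S8 and T2, and passed the threshold in these 3 lines (log2 differences -1.70, -1.34 and -1.48). Fcgrt shared none of its 50-base windows with another gene, whereas H2-T10 shared 40.5%, most of them with H2-T22, so the values of H2-T10 are uncertain. Among the other H2-Q and H2-T genes with a transcript in GENCODE, the share ran from 0.751% to 98.4%.

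The loading and trimming partners differed less. Calr and Canx, chaperones of the loading complex, were at 394 to 518 FPKM and 246 to 407 FPKM. Of the 7 genes of this list, 1 passed against R1, Erap1 in T2, where 10.5% of all tested genes passed. Erap1, which trims peptides in the endoplasmic reticulum, was at 9.18 FPKM in T2 against 1.97 and 2.47 in R1 (log2 difference 1.66, adjusted p = 0.000454 by limma).

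Of the other immunoproteasome and PA28 genes, Psmb10 and Psme2 were highest in S8 and T2. Psmb10, which encodes the third catalytic immunoproteasome subunit, was at 15.1 and 16.9 FPKM in R1, 15 and 18.7 in 16-6, 19.1 and 19.6 in 32, 77.7 in S8 and 53.7 in T2. Psme2, a subunit of the PA28 activator, was at 40 and 49.4 FPKM in R1, 50.6 and 48.6 in 16-6, 58.4 and 59.1 in 32, 119 in S8 and 94 in T2. S8 and T2 stood above all other libraries for both. Psme1, the other PA28 subunit, was at 91.5 and 87 FPKM in R1, 73.4 and 77.2 in 16-6, 108 and 105 in 32, 127 in S8 and 102 in T2, so T2 lay below 32. The log2 differences from R1 in S8 and T2 were 2.21 and 1.69 for Psmb10 and 1.39 and 1.06 for Psme2. So 2 of the 3 genes of this list were higher past the threshold in each, beside 949 and 541 of all 13693 tested genes. In 16-6 and 32, 0 of 3 passed by limma, beside 7.11% and 9.77% of all tested genes. In these lines 1 and 2 of the 3 had an unadjusted p under 0.05. Of 7 constitutive proteasome genes, 1 passed against R1, Psmb5 in S8 (log2 difference 1.04), where 16.7% of all tested genes passed. The median log2 difference of the 7 genes from R1 was 0.09 in 16-6, 0.32 in 32, 0.57 in S8 and 0.39 in T2. In the same order, 2, 7, 6 and 5 of them had an unadjusted p under 0.05 by limma. Psmb10 came to 20.7% and 18.1% of its counterpart Psmb7 in S8 and T2, against 3.72% to 4.57% in the other libraries.

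Of 11 genes for transcription factors of class I promoters, 10 were tested and 1 passed against R1, in S8 and T2. In these lines 16.7% and 10.5% of all tested genes passed. Irf1, an interferon-induced factor, was at 15.5 and 14.6 FPKM in R1, 20.7 and 21.2 in 16-6, 22.1 and 20.9 in 32, 50.1 in S8 and 38.8 in T2, and rose against R1 in S8 (log2 difference 1.67) and T2 (1.31). Nlrc5, the class I transactivator, was below 1 FPKM in every library and was not tested. It was at 0.816 and 0.848 FPKM in R1, 0.347 and 0.313 in 16-6, 0.0896 and 0.102 in 32, 0.123 in S8 and 0.239 in T2. R1 was thus highest, and 16-6 lay between R1 and the other lines, nearer to T2 than to R1.

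Some genes of interferon signaling were lower in the lines with low B2m. Of 11 receptor and signaling genes, 1, 4, 4 and 2 were lower than in R1 in 16-6, 32, S8 and T2. Among all 13693 tested genes, 484, 1127, 1334 and 896 were lower in these lines. Jak2, a receptor kinase, was at 9.03 and 8.86 FPKM in R1, 11.3 and 12.7 in 16-6, 3.86 and 3.65 in 32, 1.73 in S8 and 4.02 in T2, and fell in 32 (log2 difference -1.07) and S8 (-1.86). Jak1 fell in S8 (-1.47). Ifnar2, a subunit of the type I interferon receptor named after its values were seen, was at 27.1 and 26.4 FPKM in R1, 27.4 and 29 in 16-6, 11 and 10.5 in 32, 11.2 in S8 and 10.9 in T2, and fell in 32, S8 and T2 (log2 differences -1.24, -1.18 and -1.22). Its libraries were split without overlap in the way of B2m. Socs1, an inhibitor of the pathway, was at 12 FPKM in S8 and T2 and at 4.32 to 5.16 FPKM in the other lines, and was the 1 gene of the list that rose, in both.

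Of 20 interferon-stimulated genes, 17 were tested. Of these, 7, 7, 6 and 7 were lower than in R1 in 16-6, 32, S8 and T2, and 0, 1, 0 and 1 higher. Among all 13693 tested genes, 484, 1127, 1334 and 896 were lower, and 490, 211, 949 and 541 higher. The median log2 difference of the 17 genes from R1 was -0.92, -0.90, -0.43 and -0.75. Ifit1, an antiviral effector, averaged 3.49 FPKM in R1 and 0.98, 0.0737, 1.18 and 0.381 in 16-6, 32, S8 and T2, and fell in all 4 (log2 differences -1.18, -2.06, -1.04 and -1.70). Irf7, a factor of the type I interferon response, averaged 3.05 FPKM in R1 and at most 0.776 in the iPSC lines, and fell in all 4 as well. The list did not move as 1 group: Gbp2, an interferon-induced GTPase named after its values were seen, was at 4.09 and 4.92 FPKM in R1 and 19.6 and 20.5 in 32, and was the 1 gene higher than in R1, in 32 (log2 difference 1.94) and T2 (1.39). MHC class II genes were low throughout, with a sum over 7 genes of 6.17 to 10.9 FPKM, and 0 of the 3 tested passed against R1 by limma in any line, with 1 at an unadjusted p under 0.05 in 32 and 0 in the others.

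**Figure D5:**
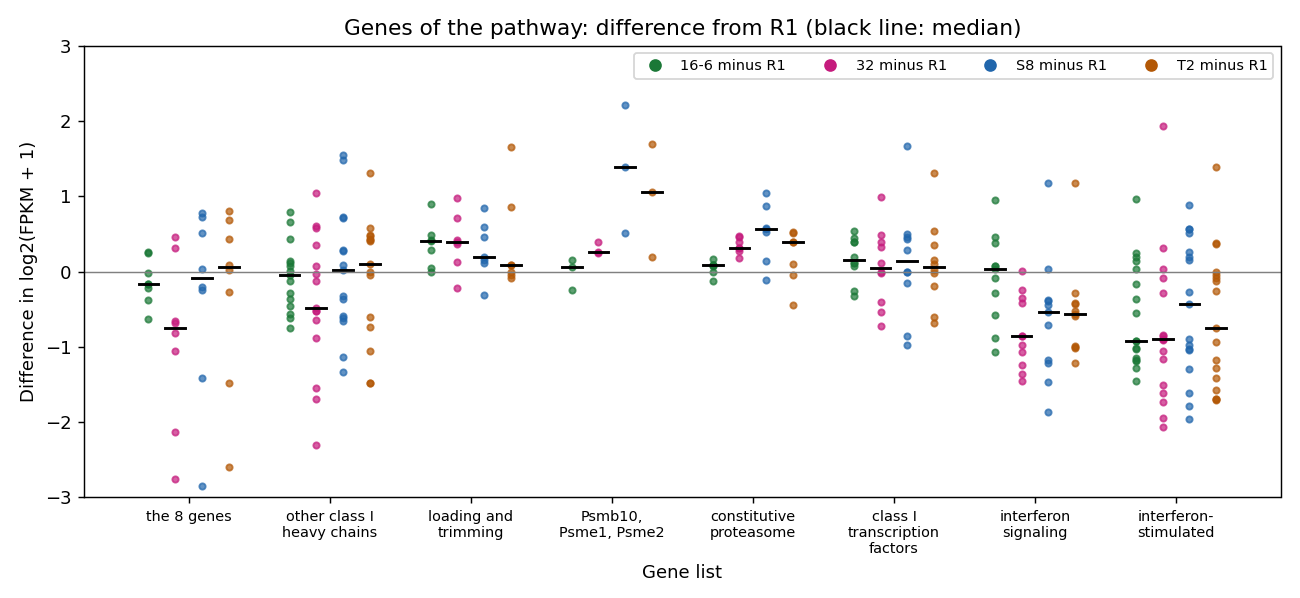
Difference from R1 in log2(FPKM + 1) (vertical axis) of every tested gene of the lists (horizontal axis), for 16-6, 32, S8 and T2. Each point is 1 gene and the black lines are medians: the list of Psmb10, Psme1 and Psme2 has medians of 1.39 and 1.06 in S8 and T2, and the interferon-stimulated genes have medians of -0.92 to -0.43.

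Within the 8 genes, the size of the differences between the 5 lines varied widely. The range of the line means in log2(FPKM + 1) was 2.85 for B2m and 2.13 for H2-D1, at the 96.5 and 93.4 percentile of all tested genes, and 0.66 for H2-K1, at the 35.1 percentile. It was 1.32 for Psmb9, 1.07 for Tap1, and between 0.77 and 0.81 for Tap2, Tapbp and Psmb8. Among 4903 tested genes with a range of at least 1, those most like the mean profile of the 8 genes over the 5 line means were Gchfr, Arhgef25, Rgs11, Sun2, Tmem200b and Car9, with a root mean square difference of 0.075 to 0.114. For B2m alone, a search chosen after its values were seen, the nearest were Mir337, Il11, Vasn, Serpina3h, Vegfa and Mir5130, at 0.0946 to 0.249. Vegfa, a growth factor for vessels, averaged 51.2 FPKM in R1, 62.4 in 16-6, 9.93 in 32, 10.2 in S8 and 13.2 in T2. Likeness over 5 line means from 8 libraries is a description.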

How the data were processed

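RNA-Seq libraries were made by the authors with the TruSeq kit. TopHat 2.0.4 placed the reads on mm9, with unique alignments kept. Deposited FPKM values with confidence limits came from Cufflinks (2.0.0 per the labels); its options are not given in the sources used here. The deposited FPKM of a library summed to 1.14e+10 to 1.6e+10, so all values were divided by 12725.7, which left ratios unchanged.

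The 8 files were merged by gene, position and start. The 13693 genes that reached an FPKM of 1 in any library were fitted as log2(FPKM + 1) with limma 3.58.1 (lmFit, eBayes with a trend; R 4.3.3), in 5 groups with 3 residual degrees of freedom, over 10 pairs of lines. The threshold was a Benjamini-Hochberg adjusted p under 0.05 and a 2-fold difference. An exact permutation test of 2 against 2 libraries cannot go below 0.33. The study calls its replicates biological, and the sources used here do not say whether they were separate cultures, so p-values measure the spread between these libraries. Fragments were estimated as the squared ratio of 2 times the FPKM to its distance from the upper limit. The limits describe uncertainty within 1 library. They were not set by level alone: Tapbp was at 24.5 and 23.7 FPKM in the libraries of 32, with 378 and 712 estimated fragments. The estimates are therefore not counts for every gene. Replicate files were not identical, and their mean squared difference was 1.21 to 1.81 times the sampling variance.

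Genes named in the text were the 8 genes, from each pathway list the 2 genes with the largest difference from R1 among those past the threshold, defining genes that a sentence turns on, and the 6 genes most like the mean profile. The 8 genes and the lists were chosen with earlier results of these data known. Sequences were read from the mm9 genome (NCBIM37), and shared windows from GENCODE vM1 transcripts. H2-L, H2-Q4, H2-Q5 and Spi1 were listed and not used here. Alternatives were another pseudocount, other filters, quantile normalization, eBayes without a trend, no fold minimum, left-out replicates, a replicate block, the 6 replicated libraries alone, and the mean of the 16-6 libraries as 1 sample. Python 3.11.15, pandas 2.3.3 and numpy 2.4.6 were used.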

Additional observations from a re-analysis of the deposited data

How the results depend on the processing

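The differences of B2m and H2-D1 kept their direction and their side of the threshold under all 14 alternatives run in 32 against R1 and under all 12 in S8 and T2 against R1. Their log2 differences ranged from -3.10 to -2.48 for B2m and from -2.24 to -1.40 for H2-D1. Without a fold minimum, genes under 2-fold were added and 2, 8, 5 and 5 of the 8 genes passed against R1 in 16-6, 32, S8 and T2, 5, 5 and 6 passed against 16-6 in 32, S8 and T2, and 6 and 6 against 32 in S8 and T2. Of all 13693 tested genes, 7610, 8428, 9127 and 7932 then passed against R1 in the same lines. Against 16-6 these were 8265, 9118 and 7181, and against 32 they were 8328 and 7163. In S8 against 32, pseudocount 0.1 gave 2 of the 8 genes (Tap1 at a log2 difference of 1.04). Psmb9 passed in 32 against R1 with pseudocount 0.1 (log2 difference -1.12, adjusted p = 0.0337) and without the first library of 32 (-1.09, adjusted p = 0.0127). Over all tested genes, counts past the threshold against R1 went with pseudocount 0.1 from 974 to 1690 in 16-6, from 1338 to 2258 in 32 and from 1437 to 2198 in T2. They went from 1105 to 1752 in T2 against 16-6, from 1621 to 2466 and 1017 to 1872 in S8 and T2 against 32, and from 376 to 794 in T2 against S8. With FPKM of at least 1 in every library, which tested 10994 genes, they were 565, 740 and 940 in 16-6, 32 and T2 against R1, and 859 and 723 in 32 and T2 against 16-6. Without a fold minimum they were 4725 to 9127 over the 10 pairs. In T2 against 32, no filter on low values gave 1 gene and quantile normalization 0, and leaving out 1 library gave 1 to 2. Without a filter, Psmb9 also lost its calls in S8 and T2 against 16-6 (adjusted p = 0.0645 and 0.0959). With the mean of the 16-6 libraries as 1 sample, Psmb9 lost its call in T2 against 16-6 (adjusted p = 0.0638). The cause of these changes was not tested.

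Small differences below the threshold changed sign: under quantile normalization Tap1 in S8 against R1 (0.01), Psmb9 in 32 against 16-6 (0.15), and H2-K1, Tap2 and Psmb8 in T2 against S8 (0.02, -0.07 and -0.02). Quantile normalization put the median of all genes at 0.14 in 32 against 16-6, and within 0.06 in the other pairs. With 1 library left out, the sign changed for H2-K1 in 16-6 against R1 (-0.09 to 0.05; 0.03 without the first 16-6 library), Psmb9 in 32 against 16-6 (-0.47 to 0.10), Tap2 in S8 and T2 against R1 (-0.09 to 0.16 and -0.04 to 0.22) and Tap1 in T2 against R1 (-0.04 to 0.09).

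Replicate numbers are shared by R1, 16-6 and 32, but the differences between replicates correlated at 0.03, -0.10 and 0.00 between pairs of lines, so the numbers do not pair the libraries. With a replicate block, 0, 3 and 2 of the 8 genes passed in 16-6 against R1, 32 against R1 and 32 against 16-6, as without it. Depth limits Psmb9, with 7 to 39 fragments per library.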
